A study of Mus musculus with 9 samples.

Results

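The genes described here encode 10 enzymes of triglyceride synthesis, chosen by name: Gpd1, Gpam, Agpat1, Agpat2, Agpat3, Lpin1, Lpin2, Lpin3, Dgat1 and Dgat2. All 10 were found in every sample, among 19094 genes listed in at least 1 sample (15816 to 16206 per sample), and all 10 passed the filter on low counts that left 13154 genes for testing. RNA-seq was performed on 3T3-L1 cells, a mouse embryo fibroblast line that turns into fat cells under hormonal induction, with 3 samples on each of 3 days. Day 0 samples were undifferentiated preadipocytes. Day 4 samples had received dexamethasone (a glucocorticoid), IBMX (a phosphodiesterase inhibitor) and insulin for 2 days and then insulin alone for 2 days, and day 8 samples had 4 further days in insulin medium. The comparisons ask which enzyme genes changed in the early phase (day 4 against day 0), in the late phase (day 8 against day 4) and over the whole course (day 8 against day 0).

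Fat cells store fatty acids as triglyceride, made on the endoplasmic reticulum by adding acyl chains to a glycerol backbone one after another. Glycerol-3-phosphate is acylated by GPAT enzymes to lysophosphatidic acid, which AGPAT enzymes turn into phosphatidic acid. Lipins remove its phosphate to give diacylglycerol, and DGAT enzymes add the last acyl chain, while phosphatidic acid and diacylglycerol also feed phospholipid synthesis.

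The depth was 18216114 to 20452144 expected counts per sample (median 20182731). Levels are given as FPKM, fragments per kilobase of transcript, scaled to the depth of the sample, which takes gene length into account. A gene is said to have risen or fallen where edgeR's quasi-likelihood test gave a Benjamini-Hochberg adjusted p under 0.05 over all tested genes, and it is called differentially expressed where the fold change also exceeded 2. The methods describe cells pooled within a stage and samples prepared as RNA mixtures, and no source states that the 3 samples of a day came from separate cultures, so the p-values measure the spread between these samples, which may be technical.

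Before the enzymes, the labelled cell type was checked against marker genes. The labels call the cells adipocytes on every day, but the summed FPKM of 8 adipocyte markers was 143.9 to 148.9 at day 0, of which Lpl, which encodes lipoprotein lipase, made up 113.5 to 121.3. The sum was 5921 to 8458 at day 4 and 8764 to 9572 at day 8, led by Fabp4, the fatty acid binding protein of fat cells, and all 8 markers were differentially expressed in the early phase with higher levels at day 4 (Adipoq, which encodes adiponectin, log2 fold change 9.91). The others were Cidec (10.20), Cfd (9.81), Plin1 (9.62), Fabp4 (8.81), Cebpa (3.96), Lpl (3.5) and Pparg (3.00). In the late phase Cfd, which encodes adipsin, was the 1 marker called among the 8 (1.26). The summed FPKM of 5 preadipocyte and fibroblast markers lay at 5059 to 5312 on day 0, between 3610 and 3908 on day 4 and between 4327 and 4469 on day 8, with Vim (vimentin) or Col1a1 (collagen I) the most abundant. Of these 5, only Dlk1, which encodes a preadipocyte protein, was differentially expressed between neighbouring days, with a log2 fold change of -2.13 early and 1.24 late. Over the whole course Dlk1 had -0.88, under the fold threshold. Members of the list differed in direction: Pdgfra, which encodes a growth factor receptor, had 0.84 early and -0.59 late, Vim -0.24 and -0.48, Col1a1 -0.18 and 0.85, and Thy1 -0.44 and 0.45, each under the fold threshold. In bulk samples like these, fewer cells of a type and less RNA per cell cannot be told apart. By the adjusted p alone all 8 adipocyte markers rose early, where 9 of the 10 enzyme genes described below rose and 1 fell. Late, 7 of the adipocyte markers rose, while 4 enzyme genes rose and 2 fell. The part of cell type proportions in the changes of the enzyme genes was not tested. Signals of other cell types were low: 6 macrophage markers summed to 1.37 to 2.2 FPKM per sample, mostly Cd68, with Adgre1 at 0 in 8 of 9 samples. The 4 endothelial markers listed, of 5 sought, summed to 0.18 to 0.56 FPKM, with Cdh5, Tek or Pecam1 the most abundant. Pecam1, with 6 to 20 counts per sample, was the 1 endothelial marker tested and was called higher late (log2 fold change 1.01), and neither of the macrophage markers tested, Cd68 and Csf1r, was called. The extraction text in the labels names dorsal root ganglia, and 6 sensory neuron markers summed to 0.21 to 0.54 FPKM, with Prph, Isl1 or Calca the most abundant and Scn10a at 0 in 8 of 9 samples.

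In the early phase 7 of the 10 enzyme genes were differentially expressed, all 7 with higher levels at day 4: Gpd1, Dgat2, Agpat2, Dgat1, Lpin1, Lpin3 and Agpat3. Among all tested genes, 17.8% were called in this comparison, 9.77% higher and 7.98% lower. By the adjusted p alone, 9 members rose and 1 fell, against 35.5% and 33.7% of all genes. The median log2 fold change of the 10 members was 2.17, beside 0.02 for all tested genes. In the late phase no member was differentially expressed, where 7.05% of all genes were called, 4.24% higher and 2.81% lower. By the adjusted p alone 4 members rose (Gpd1, Lpin2, Lpin3 and Dgat1) and 2 fell (Agpat2 and Dgat2), against 22.5% and 22.7% of all genes, and the median was 0.11 beside -0.01. This late tally depended on the setting, with 2 to 5 members that rose and 1 or 2 that fell over the alternatives run. Over the whole course the 7 members named above were again called higher and none lower, with 18.0% of all genes called, 10.3% higher and 7.70% lower. The adjusted p alone gave 9 members that rose and none that fell over the whole course, against 34.8% and 36.2%, and the median was 2.44 beside -0.02. The 3 comparisons share samples, and their calls are not independent of each other.

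**Figure D1:**
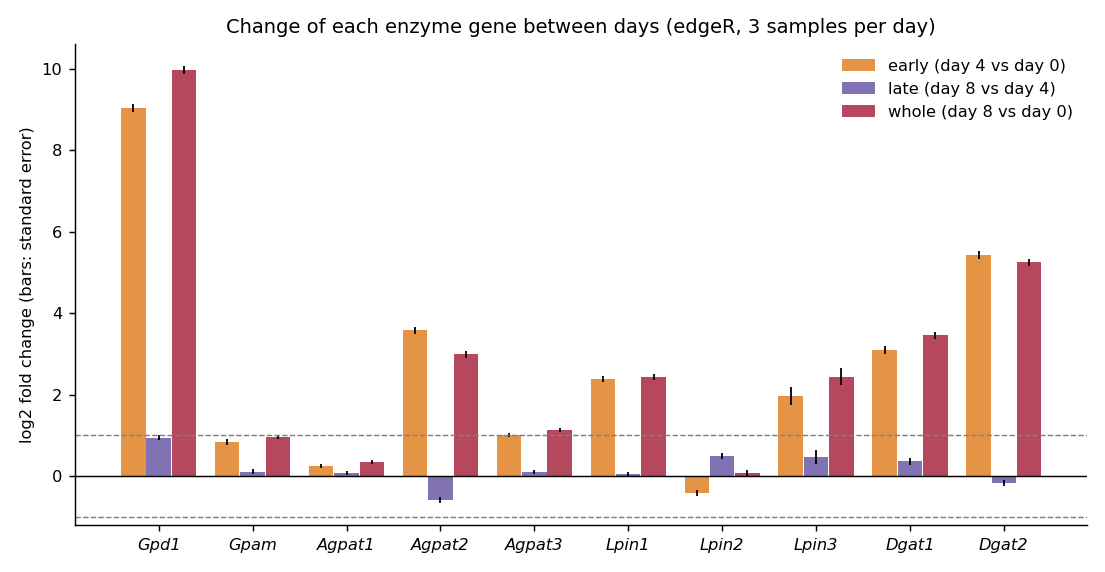
Log2 fold change of each of the 10 enzyme genes in the early, late and whole comparison (edgeR, 3 samples per day). Bars show the estimate, thin lines its standard error and dashed lines a fold change of 2. The early and whole bars of Gpd1 reach 9.03 and 9.97, and all 10 late bars lie between -0.59 and 0.94.

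Gpd1 (gene 14555) encodes the cytosolic glycerol-3-phosphate dehydrogenase, which makes glycerol-3-phosphate from the glycolytic intermediate dihydroxyacetone phosphate. Its level was 0.68, 0.70 and 0.62 FPKM in the day 0 samples, 299, 355 and 346 FPKM at day 4, and 615, 637 and 611 FPKM at day 8. The 3 days did not overlap, and Gpd1 moved from the next to lowest level of the 10 genes at day 0 to the highest at days 4 and 8. Its log2 fold change was 9.03 (SE 0.10, edgeR adjusted p = 7.5e-19) early and 9.97 (SE 0.10, edgeR adjusted p = 3.7e-19) over the whole course. In the late phase it rose by a log2 fold change of 0.94 (SE 0.06, edgeR adjusted p = 2.2e-09), under the fold threshold, and the value was 1.02 without day 4 replicate 2, which passes it. The day 0 level rests on 36 to 39 expected counts per sample. Of the 50-base stretches in annotated Gpd1 transcripts, 9.65% also lie in the antisense gene Gm16537, and as the strand handling of the counting is not given, reads from the overlap cannot be told apart.

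Gpam (gene 14732) encodes the mitochondrial glycerol-3-phosphate acyltransferase, the only GPAT among the members. It measured 7.31, 6.51 and 6.84 FPKM at day 0, 12.5, 11.9 and 11.1 FPKM at day 4, and 12.3, 12.7 and 12.2 FPKM at day 8. All day 0 samples lay below all later ones, while days 4 and 8 overlapped. Gpam rose early by a log2 fold change of 0.84 (SE 0.07, edgeR adjusted p = 7.8e-09), which is 1.79-fold and under the threshold for a call. Over the whole course it rose by 0.96 (SE 0.06, edgeR adjusted p = 1.5e-09), and the value reached 1.00 and passed the fold threshold without day 0 replicate 1. The late change was 0.11 (SE 0.06, edgeR adjusted p = 0.145).

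The GPATs of the endoplasmic reticulum, Gpat3 and Gpat4, are not members but act at the same step. Gpat3, listed under its older symbol Agpat9, had a mean of 1.48 ± 0.195 FPKM (SD, n = 3) on day 0, 20.6 ± 2.91 on day 4 and 22.1 ± 1.71 on day 8. Its early log2 fold change of 3.86 (SE 0.12, edgeR adjusted p = 1.3e-13) stood beside 0.84 for Gpam. Gpat4 was the most abundant of the 3 at each day, with 30.3 ± 0.845, 50.2 ± 0.813 and 32.7 ± 0.466 FPKM, and it rose early (log2 fold change 0.80) and fell late (-0.58). Of the summed FPKM of these 3 genes, Gpam made up 17.8% ± 1.04 (SD, n = 3) on day 0, 14.3% ± 1.35 on day 4 and 18.4% ± 0.223 on day 8. The share of Gpat3 was 3.83% ± 0.424, 24.8% ± 2.69 and 32.9% ± 1.84 on the same days, and the share of Gpat4 was 78.4% ± 1.23, 60.9% ± 1.35 and 48.7% ± 1.73. These shares are a description and were not tested.

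**Figure D2:**
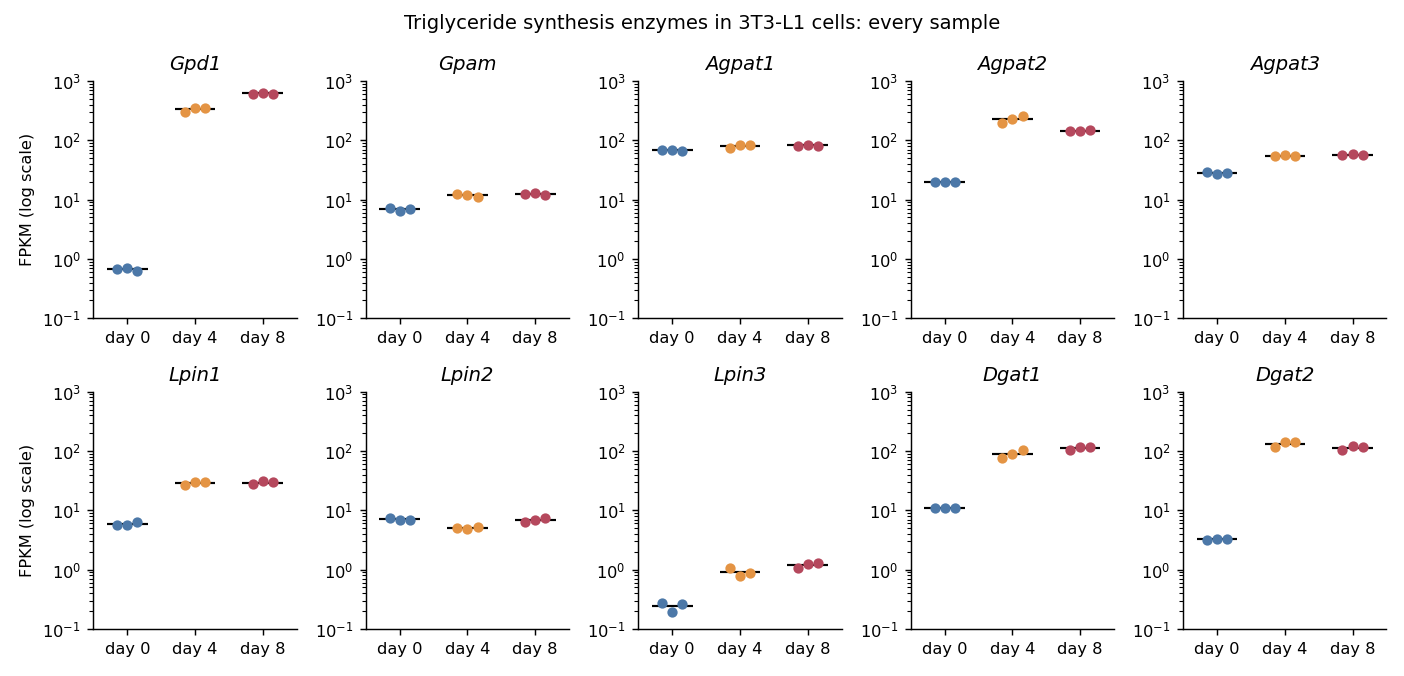
FPKM of each of the 10 enzyme genes in every sample (dots, log scale) at day 0, 4 and 8, with the mean of the 3 samples as a line. Day 0 lies apart from day 4 in every panel. Gpd1 spans 0.62 to 637 FPKM and Lpin2 4.84 to 7.40 FPKM.

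The 3 AGPAT members add the second acyl chain. AGPAT2 is the isoform typical of fat tissue and its loss in people causes congenital generalized lipodystrophy, AGPAT1 is expressed in most tissues, and AGPAT3 also acts on other lysophospholipids. Agpat2 (gene 67512) measured 20.2, 19.5 and 19.5 FPKM at day 0, 194, 228 and 255 FPKM at day 4, and 142, 141 and 151 FPKM at day 8. The 3 days did not overlap, and the highest levels were at day 4. Agpat2 rose early by a log2 fold change of 3.58 (SE 0.09, edgeR adjusted p = 5.2e-15), or 12.0-fold, and fell late by 0.59 on the log2 scale (SE 0.07, edgeR adjusted p = 6.2e-06). Its whole-course value was 2.99 (SE 0.08, edgeR adjusted p = 3.7e-14).

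Agpat1 (gene 55979) had the highest level of the 10 genes at day 0, with 70.0, 69.7 and 65.7 FPKM. It measured 73.9, 81.9 and 82.3 FPKM at day 4 and 81.2, 83.8 and 80.7 FPKM at day 8, so that day 0 lay below the later days and these overlapped. It rose early by a log2 fold change of 0.26 (SE 0.05, edgeR adjusted p = 2.8e-04) and by 0.34 over the whole course (SE 0.05, edgeR adjusted p = 1.6e-05), and the late change was 0.08 (SE 0.05, edgeR adjusted p = 0.19). The mean transcript length estimated for Agpat1 was 2126 to 2149 bases in the day 0 samples, 2096 to 2113 bases in those of day 4 and 2083 to 2108 bases in those of day 8. Agpat3 (gene 28169) measured 29.3, 27.4 and 28.1 FPKM at day 0, 54.2, 56.3 and 53.9 FPKM at day 4, and 56.0, 58.95 and 57.6 FPKM at day 8. Day 0 lay below both later days, which overlapped. Its early log2 fold change of 1.02 (SE 0.05, edgeR adjusted p = 1.7e-11) lay just above the threshold. The call was lost at 0.99 without day 0 replicate 2 and at 0.99 without day 4 replicate 2, and at 0.96 with scaling to library size alone. Over the whole course Agpat3 rose by 1.14 (SE 0.05, edgeR adjusted p = 4.5e-12), and the late change was 0.11 (SE 0.05, edgeR adjusted p = 0.0574), which passed 0.05 with the DESeq2 size factors in edgeR (adjusted p = 0.0321), with DESeq2 itself (adjusted p = 0.0309) and without day 4 replicate 2 or day 8 replicate 1 (edgeR adjusted p = 0.0214 and 0.0439). Of their 50-base stretches, Agpat1 shares 1.71% with Egfl8 and Agpat2 shares 0.676% with Egfl7, both genes on the opposite strand, and the exons of Agpat3 overlap those of Gm40709, also on the opposite strand.

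The ratio of these isozymes was tested by an exact permutation test of the log2 ratio of FPKM between days over all 1680 assignments of the 9 samples, with p adjusted over 7 pairs of isozymes. The test has no direction, and the smallest p it can give is 0.00357. The ratio of Agpat2 to Agpat1 was 0.2885 ± 0.00894 (SD, n = 3) at day 0, 2.84 ± 0.244 at day 4 and 1.77 ± 0.0902 at day 8 (exact adjusted p = 0.00625). Agpat2 was below Agpat1 in all 3 day 0 samples and above it in all 6 later ones. The ratio of Agpat2 to Agpat3 was 0.699 ± 0.0114, 4.12 ± 0.586 and 2.52 ± 0.110 on the 3 days (exact adjusted p = 0.00625, n = 3 per day). The ratio of Agpat3 to Agpat1 was 0.413 ± 0.0178, 0.692 ± 0.0397 and 0.702 ± 0.0122 (exact adjusted p = 0.035, n = 3 per day). Agpat1 made up 58.8% ± 0.921 of the summed FPKM of the 3 genes at day 0, and Agpat2 62.6% ± 2.52 at day 4 and 50.9% ± 1.18 at day 8. Agpat4 and Agpat5, which are not members, are left out of these shares, so the shares do not describe all AGPAT genes. Agpat4 had means of 27.8, 39.2 and 21.9 FPKM on days 0, 4 and 8, and Agpat5 7.21, 8.41 and 8.88 FPKM.

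The promoters of Agpat2 and Agpat1 are shown because these isozymes of 1 step differed in their change. Each sequence holds the 250 bases before a transcription start, as given by RefSeq on GRCm38.p6, while the build used for the counts is not given in the sources used here. RefSeq promoters matched 7 of the 10 members, with 12 starts in all, and Gpd1, Dgat1 and Dgat2 had none in the table used. Both strands were searched for 7 motifs: the E-box CACGTG, the CCAAT box CCAAT, the GC box GGGCGG, the TATA box TATAAA, the sterol regulatory element (ATCAC, any base, CCAC), the direct repeat 1 (AGGTCA, any base, AGGTCA) and the C/EBP palindrome TTGCGCAA. Of 32851 promoters of the same length, 6.02%, 33.8%, 32.7%, 12.4%, 0.192%, 0.0335% and 0.164% held them in that order. Matches are in capitals, and positions count back from the start, where the base before it is -1. The promoter of Agpat2 lies at chr2:26604418-26604667 on the minus strand and that of Agpat1 at chr17:34605611-34605860 on the plus strand, the more upstream of the starts listed for Agpat1.
Agpat2: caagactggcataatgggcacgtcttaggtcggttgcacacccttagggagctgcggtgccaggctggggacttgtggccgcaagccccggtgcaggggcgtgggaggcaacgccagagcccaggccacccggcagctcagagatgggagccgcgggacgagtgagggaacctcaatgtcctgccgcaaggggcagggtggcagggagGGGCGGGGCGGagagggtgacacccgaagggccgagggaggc
Agpat1: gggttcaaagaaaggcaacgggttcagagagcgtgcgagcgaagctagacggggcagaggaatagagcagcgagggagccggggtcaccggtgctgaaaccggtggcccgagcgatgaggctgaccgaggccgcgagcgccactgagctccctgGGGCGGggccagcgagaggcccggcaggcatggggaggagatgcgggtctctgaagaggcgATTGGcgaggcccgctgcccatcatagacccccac
The Agpat2 promoter holds overlapping GC boxes at -42 and -37, and the Agpat1 promoter holds a GC box at -96 and a CCAAT box, on the opposite strand, at -35. The GC content was 69.2% for Agpat2 and 67.6% for Agpat1, beside a median of 52.4% for all promoters. The window of the other start listed for Agpat1 holds a GC box at -15, no CCAAT box and a GC content of 54.4%. A match describes the letters only.

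Lipins are phosphatidic acid phosphatases, and lipin 1 is the main form in fat tissue, where its loss in mice causes lipodystrophy. Lpin1 (gene 14245) measured 5.57, 5.75 and 6.28 FPKM at day 0, 27.2, 30.5 and 30.1 FPKM at day 4, and 27.5, 30.7 and 29.5 FPKM at day 8. Day 0 lay below the later days, and days 4 and 8 overlapped. Its log2 fold change was 2.38 (SE 0.07, edgeR adjusted p = 2.9e-14) early, 0.05 (SE 0.06, edgeR adjusted p = 0.554) late and 2.43 (SE 0.07, edgeR adjusted p = 2.4e-14) over the whole course.

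Lpin2 (gene 64898), the form prominent in liver, was the one member that fell in the early phase. Its level was 7.35, 6.99 and 6.97 FPKM at day 0, 5.04, 4.84 and 5.31 FPKM at day 4, and 6.38, 6.97 and 7.40 FPKM at day 8. Every day 4 sample lay below every other sample, and days 0 and 8 overlapped. Lpin2 fell early by 0.42 on the log2 scale (SE 0.07, edgeR adjusted p = 4.1e-05), rose late by 0.49 (SE 0.07, edgeR adjusted p = 2.0e-05), and had a whole-course value of 0.07 (SE 0.07, edgeR adjusted p = 0.334). Lpin3 (gene 64899) had the lowest level of the 10 genes on each day, with 0.27, 0.19 and 0.26 FPKM at day 0, 1.06, 0.77 and 0.88 FPKM at day 4, and 1.06, 1.26 and 1.31 FPKM at day 8. Day 0 lay below the later days, and days 4 and 8 overlapped. Its log2 fold change was 1.96 (SE 0.22, edgeR adjusted p = 9.7e-07) early, 0.48 (SE 0.17, edgeR adjusted p = 0.0303) late and 2.44 (SE 0.21, edgeR adjusted p = 3.8e-08) over the whole course. These values rest on 12 to 19 expected counts per sample at day 0 and 54 to 73 at day 4, and their standard errors are the largest of the 10 members. The late adjusted p missed 0.05 in 6 of 19 alternatives, among them DESeq2 (0.0692) and leaving out day 4 replicate 2 or 3 or day 8 replicate 2 or 3 (edgeR adjusted p = 0.0707 to 0.0992). On the log2(FPKM + 1) scale with limma, where the pseudocount lowers the fold change of low genes, Lpin3 had 0.62 early and 0.83 over the whole course, under the fold threshold.

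The ratio of Lpin1 to Lpin2 was 0.827 ± 0.0717 (SD, n = 3) at day 0, 5.80 ± 0.462 at day 4 and 4.24 ± 0.216 at day 8 (exact adjusted p = 0.00625 by the permutation test). Lpin2 was the higher of the pair in all 3 day 0 samples and Lpin1 in all 6 later ones. The ratio of Lpin2 to Lpin3 was 30.3 ± 5.65, 5.69 ± 0.821 and 5.73 ± 0.254 on the 3 days (exact adjusted p = 0.0417, n = 3 per day). That of Lpin1 to Lpin3 was 25.0 ± 4.87, 33.2 ± 7.03 and 24.3 ± 1.71, and a difference between days was not detectable (exact adjusted p = 0.139, n = 3 per day), though it passed the test with 0.1 added to each FPKM (exact adjusted p = 0.01). Lpin1 made up 44.4% ± 2.13 of the summed lipin FPKM on day 0, 83.05% ± 1.39 on day 4 and 78.3% ± 0.900 on day 8.

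The promoters of Lpin1, which was called, and Lpin2, which was not, follow in the same form, with the former at chr12:16610967-16611216 on the minus strand and the latter at chr17:71183282-71183531 on the plus strand, the most upstream of the starts listed for Lpin2.
Lpin1: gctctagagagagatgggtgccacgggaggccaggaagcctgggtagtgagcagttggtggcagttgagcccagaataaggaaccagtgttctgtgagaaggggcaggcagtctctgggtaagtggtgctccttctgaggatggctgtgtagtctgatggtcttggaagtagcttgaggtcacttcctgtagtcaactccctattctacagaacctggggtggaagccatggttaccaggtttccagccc
Lpin2: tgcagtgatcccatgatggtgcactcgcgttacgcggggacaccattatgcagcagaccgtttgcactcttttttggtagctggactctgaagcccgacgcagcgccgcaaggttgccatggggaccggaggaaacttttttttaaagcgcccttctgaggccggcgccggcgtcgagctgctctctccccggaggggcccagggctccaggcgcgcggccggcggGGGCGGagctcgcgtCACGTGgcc
None of the 7 motifs was found in the Lpin1 window. The Lpin2 window holds a GC box at -24 and the E-box CACGTG at -9. The GC content was 54.8% for Lpin1 and 65.2% for Lpin2. The bases just after this Lpin2 start were not found in a GENCODE transcript, whereas those after its other 2 listed starts were. The windows of those starts hold no E-box CACGTG: 1 has a GC box and a GC content of 83.2%, and the other has 3 CCAAT boxes and a GC content of 44.8%.

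DGAT1 and DGAT2 catalyse the same last step but belong to unrelated protein families. Dgat1 (gene 13350) measured 10.99, 10.9 and 11.06 FPKM at day 0, 77.5, 89.9 and 103 FPKM at day 4, and 103, 117 and 116 FPKM at day 8. The 3 days did not overlap, although day 4 replicate 3 (102.81 FPKM) and day 8 replicate 1 (102.91 FPKM) nearly met. Its log2 fold change was 3.10 (SE 0.09, edgeR adjusted p = 7.6e-14) early, 0.36 (SE 0.08, edgeR adjusted p = 0.00137) late and 3.46 (SE 0.09, edgeR adjusted p = 2.3e-14) over the whole course. Dgat2 (gene 67800) measured 3.11, 3.24 and 3.32 FPKM at day 0, 118, 140 and 141 FPKM at day 4, and 105, 120 and 116 FPKM at day 8. Day 0 lay below the later days, and days 4 and 8 overlapped. Its early log2 fold change of 5.43 (SE 0.09, edgeR adjusted p = 9.8e-17), or 43.0-fold, was the second largest among the 10 members. Its late value was -0.17 (SE 0.07, edgeR adjusted p = 0.044), which missed 0.05 in 12 of 20 alternatives, among them DESeq2 (adjusted p = 0.079) and leaving out any of the day 0 samples, day 4 replicate 2 or 3, or day 8 replicate 1 or 3 (edgeR adjusted p = 0.0502 to 0.29). Its whole-course value was 5.25 (SE 0.09, edgeR adjusted p = 2.0e-16).

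The ratio of Dgat2 to Dgat1 was 0.294 ± 0.00938 (SD, n = 3) at day 0, 1.48 ± 0.0971 at day 4 and 1.02 ± 0.0154 at day 8 (exact adjusted p = 0.00625 by the permutation test). Dgat1 was the higher of the pair in all day 0 samples and Dgat2 in all day 4 samples, and at day 8 their replicate ranges overlapped. Dgat2 made up 22.7% ± 0.563 of the summed FPKM of both genes on day 0, 59.6% ± 1.61 on day 4 and 50.4% ± 0.379 on day 8. For the DGAT pair, for Agpat2 beside Agpat1 or Agpat3, and for Lpin1 beside Lpin2, the ratio at day 8 lay between those at days 0 and 4. That of Lpin2 to Lpin3 did so only narrowly (5.73 at day 8 beside 5.69 at day 4). It lay outside them for Agpat3 to Agpat1 (0.702 beside 0.692 at day 4) and for Lpin1 to Lpin3 (24.3 beside 25.0 at day 0).

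**Figure D3:**
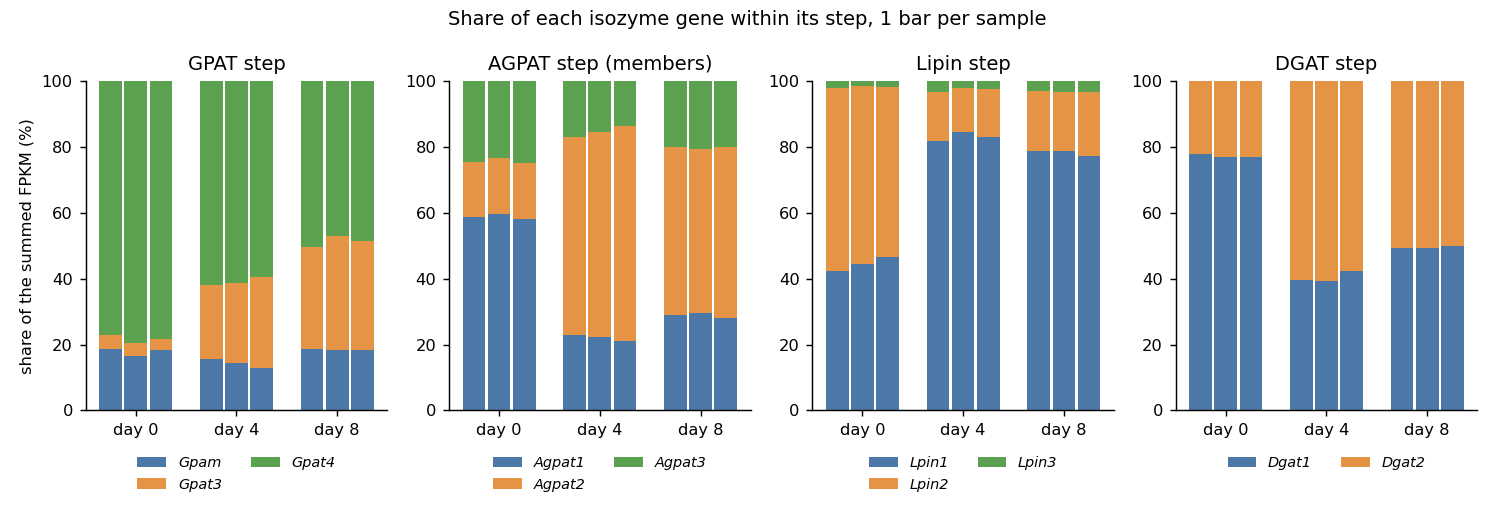
Share of each gene in the summed FPKM of the genes shown for its step, 1 bar per sample from 0 to 100%. The panels are the GPATs (with Gpat3 and Gpat4, which are not members), the AGPAT members (without Agpat4 and Agpat5), the lipins and the DGATs. Agpat2 rises from 16.95% at day 0 to 62.6% at day 4, Lpin1 from 44.4% to 83.05% and Dgat2 from 22.7% to 59.6% (means of 3 samples).

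The order of the 10 genes by mean FPKM changed between days. At day 0 it ran Agpat1 (68.5 FPKM), Agpat3, Agpat2, Dgat1, Lpin2, Gpam, Lpin1, Dgat2, Gpd1 and Lpin3 (0.24 FPKM), and of the neighbours only Lpin2 and Gpam overlapped. At day 4 the order was Gpd1 (333.5 FPKM), Agpat2, Dgat2, Dgat1, Agpat1, Agpat3, Lpin1, Gpam, Lpin2 and Lpin3, with Dgat1 and Agpat1 overlapping. At day 8 it was Gpd1 (621 FPKM), Agpat2, Dgat2, Dgat1, Agpat1, Agpat3, Lpin1, Gpam, Lpin2 and Lpin3, with Dgat2 and Dgat1 overlapping. The summed FPKM of the 10 genes was 151 ± 3.15 (SD, n = 3) on day 0, 963 ± 89.0 on day 4 and 1181 ± 29.9 on day 8. The late rise of this sum came from Gpd1, whose mean went from 333.5 to 621 FPKM. Between the same days the sum of the AGPAT members fell from 359.8 to 284.2 FPKM. The lipin sum went from 35.3 to 37.4 FPKM, the DGAT sum from 222.7 to 225.9 and Gpam from 11.8 to 12.4. Among the day 4 samples, replicate 1 had the lowest level of Agpat2, Dgat1, Dgat2 and Gpd1 and the lowest adipocyte marker sum (5921 FPKM), and replicate 3 had the highest level of Agpat2, Dgat1 and Dgat2 and the highest marker sum (8458 FPKM). Agpat1 was likewise lowest in replicate 1 and highest in replicate 3, but not all members shared this order: Gpam was highest in replicate 1 and lowest in replicate 3, Agpat3 was lowest in replicate 3, and Lpin3 was highest in replicate 1.

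Genes near this pathway were described from 3 further lists, whose counts stand beside 9.77% of all tested genes called higher early, 4.24% late and 10.3% over the whole course. Other acyltransferases and enzymes of glycerol supply numbered 11, of which 9 were tested (Gpat2 and Mogat2 were at most 3 counts in any sample). In the early phase 2 were called higher, Gpat3 and Mogat1, and none lower, with a median log2 fold change of 0.57. Mogat1, which acylates monoacylglycerol, had 0 counts in all day 0 samples, 5 to 11 counts at day 4 and 9 to 17 at day 8. Set against a floor of 3 counts per library, its level was at least 2.83-fold higher at day 4 and at least 4.35-fold higher at day 8, and with Mogat1 at that bound the list median remained 0.57. None of the 9 was called in the late phase (median 0.12), and the same genes, Gpat3 and Mogat1, were called higher over the whole course (median 0.42). Gpat4 was the most abundant gene of this list in every sample.

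The second list held 6 genes that act on lipins or on lipid droplet formation, or that remove phosphate from lipid phosphates at the cell surface. Bscl2, which encodes seipin, a protein of the sites where lipid droplets form, measured 2.03 ± 0.177 FPKM (SD, n = 3) on day 0, 8.0 ± 0.705 on day 4 and 9.33 ± 0.635 on day 8. Its log2 fold change was 1.90 early (SE 0.11, edgeR adjusted p = 1.7e-10) and 2.14 over the whole course. Plpp1, a lipid phosphate phosphatase, was called higher in the early phase (log2 fold change 1.30, SE 0.05, edgeR adjusted p = 2.3e-12), fell late by 0.38 on the log2 scale, and was 0.92 over the whole course. The other 4 were called in no comparison, among them Plpp3, the most abundant on average (96.7, 125.6 and 136.6 FPKM at days 0, 4 and 8). The list medians were 0.28 early, 0.06 late and 0.41 over the whole course.

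Of 16 genes of the phospholipid branch, which draws on the same phosphatidic acid and diacylglycerol, 15 were listed and all 15 tested. Only Pemt, which methylates phosphatidylethanolamine to phosphatidylcholine, was called higher early (log2 fold change 1.65, SE 0.13, edgeR adjusted p = 1.1e-08), 1 of 15 genes beside 9.77% of all tested genes. None was called late, and over the whole course Pemt (2.46) and Chpt1, a cholinephosphotransferase that uses diacylglycerol (1.43, SE 0.09, edgeR adjusted p = 3.0e-10), were called higher and none lower, 2 of 15 genes beside 10.3%. Cdipt, the phosphatidylinositol synthase, was the most abundant at day 0 (44.0 ± 2.85 FPKM) and Chpt1 at day 8 (43.1 ± 2.0 FPKM). The list medians were 0.22 early, -0.08 late and 0.01 over the whole course, beside 2.17, 0.11 and 2.44 for the 10 triglyceride synthesis genes.

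**Figure D4:**
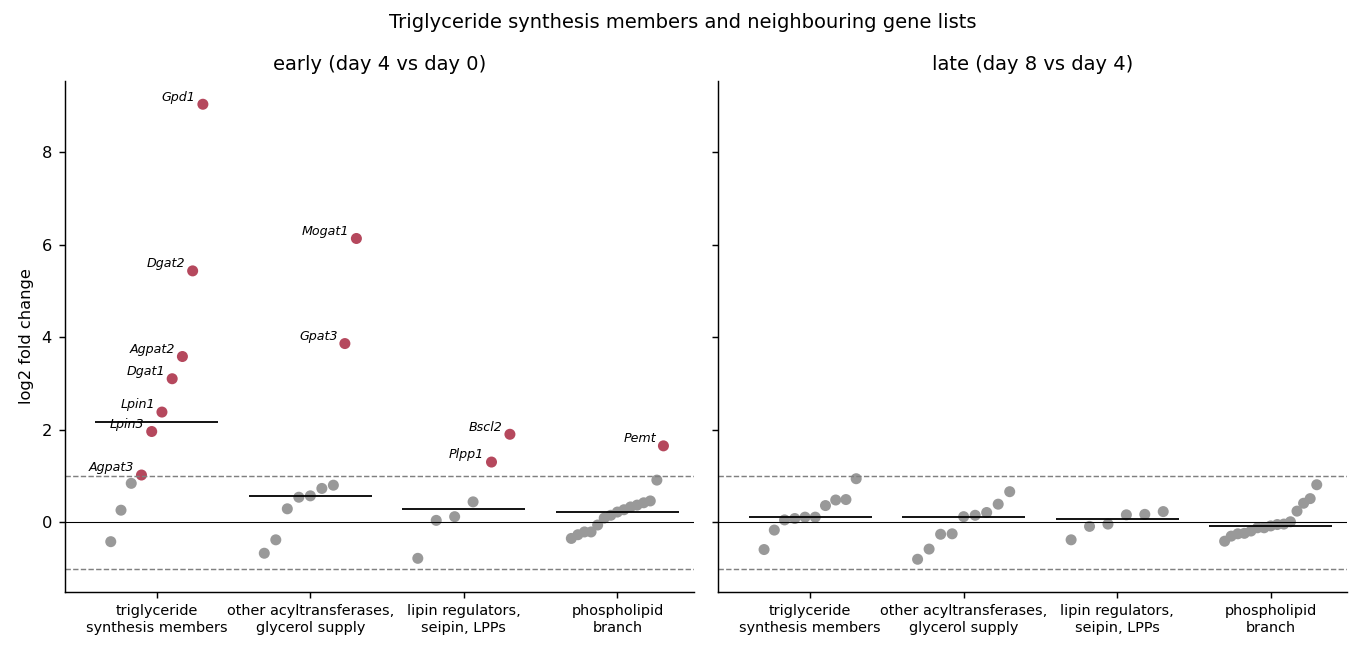
Log2 fold change of each tested gene (dots) in the early and the late phase for the 10 members and the 3 neighbouring lists of 9, 6 and 15 genes, with the list median as a line and a fold change of 2 as dashed lines. Red dots are genes called higher and grey dots are genes not called. The fitted value of Mogat1 has no bound because it had 0 counts at day 0. The early median of the members is 2.17, beside 0.57, 0.28 and 0.22 in the other lists.

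For each member that was called in a comparison, the genes with the most similar pattern were found by Pearson r of log2 CPM (counts scaled to the depth of each sample) over the 9 samples among 11466 genes. These r values are a description, since the samples form 3 days and any gene with a like step between days scores high. Closest to Gpd1 were Slc13a4 (r = 0.9994), Dmpk (0.9991) and Cfd (0.9989), the adipsin gene. The nearest to Agpat2, which peaked at day 4, were Hp (r = 0.9991), which encodes haptoglobin, Htra3 (0.9986) and Bcat2 (0.9985), the mitochondrial branched-chain aminotransferase. Agpat3 was followed by Bcl2l13 (r = 0.9986), Gramd1b (0.9985) and Dtx4 (0.9984). For Lpin1 they were Chp1 (r = 0.9997), A530016L24Rik (0.9991) and Pex11a (0.9989), a peroxisomal membrane protein gene. Lpin3 had lower values, with Ing4 (r = 0.9956), Sdhaf1 (0.9943) and Mccc1 (0.9925). Dgat1 stood with Sh2b2 (r = 0.9996), Cebpa (0.9995), a transcription factor of fat cell differentiation, and Lpl (0.9994). Dgat2 stood with Pxmp4 (r = 0.9998), Pnpla2 (0.9997), which encodes the triglyceride lipase ATGL, and Abhd15 (0.9996).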

How the data were processed

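RNA-seq was analysed from 9 samples of 3T3-L1 cells, 3 per day. After filtering of low-quality reads, the authors mapped with HISAT/Bowtie2 and quantified genes with RSEM. Per the labels' processing notes CASAVA 1.4 and Bowtie2 were used, and the genome build and the strand setting are not given in the sources used here. The deposited tables hold an expected count per gene (29.8% were not whole numbers), FPKM and an average transcript length in bases for each sample. Each sample has a table of its own, and the methods describe cells pooled within a stage and samples prepared as RNA mixtures. Here 26 symbols that a spreadsheet had turned into dates were restored from gene IDs.

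Expected counts were rounded and tested with edgeR 4.0.16 (R 4.3.3): TMM scaling, filterByExpr with a minimum of 10 counts, a quasi-likelihood fit over all 9 samples with day as the factor, and Benjamini-Hochberg adjustment over 13154 genes. Calls were made at a fold change over 2 with an adjusted p below 0.05. The fit was tested on simulated data. FPKM ratios of 7 isozyme pairs were tested by exact permutation. At these depths 3 counts equal 0.147 to 0.165 CPM, which limits statements on genes near 0. Counts differed between all replicate pairs by more than sampling noise.

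The enzymes and the other gene lists were chosen with earlier results of these data known. A list of reference genes is not reported here. All 10 members are named, and from the other lists the genes called in at least 1 comparison and the most abundant one. Of the untested genes and of the markers at 0 in some samples, only some are named. Pdgfra, Thy1, Csf1r, Agpat4 and Agpat5 were named outside this rule, after their values were seen. For each called member the 3 genes with the highest Pearson r, among genes averaging 1 or more in log2 CPM, are given. Shared sequence was counted in GENCODE vM21 transcripts. Alternatives were other scalings (DESeq2 size factors, library size alone), DESeq2 1.42.0, edgeR's exact test, other filters, limma 3.58.1 on log2(FPKM + 1) or log2(FPKM + 0.1), a replicate block and leaving out each sample.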

Additional observations from a re-analysis of the deposited data

How the results depend on the processing

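Of 270 log2 fold changes of members with 1 sample left out, 265 kept their direction and side of the threshold, and of 327 under other settings 312 did. Those that lost a call were Agpat3 early (0.93 with limma on log2(FPKM + 1), with or without a mean FPKM of at least 1, 0.95 on log2(FPKM + 0.1), 0.96 with library size alone, 0.99 without day 0 replicate 2 or day 4 replicate 2) and over the whole course (1.00 with limma on log2(FPKM + 1), with or without that filter). Lpin3 had 0.62 early and 0.83 over the whole course with limma on log2(FPKM + 1), where the pseudocount lowers the fold change of low genes, and it was not tested under the mean FPKM filter. Without 1 sample, Gpam over the whole course (1.00 without day 0 replicate 1) and Gpd1 late (1.02 without day 4 replicate 2) were gained, so that the number of members called higher in the late phase ranged from 0 to 1. The number called higher was 5 to 7 early and 5 to 8 over the whole course. The sign turned only for values near 0 that passed no test: Lpin2 over the whole course (0.07) was -0.04 with library size alone and in all 3 limma fits, and Lpin1 late (0.05) came to 0.00 in the limma fits and ranged from 0.00 to 0.11 with 1 sample left out. By the adjusted p alone, the late side changed for Dgat2 in 12 of 20 alternatives, for Lpin3 in 6 of 19, for Agpat3 in 4 of 20 and for Dgat1 in 1 of 20 (0.0555 with limma on log2(FPKM + 0.1)), and no early or whole-course side changed.

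Counts of all called genes were lower with limma on log2(FPKM + 1): 1278 early, 370 late and 1285 over the whole course, and 1234, 350 and 1230 with a mean FPKM of at least 1, against 2335, 928 and 2369. With at least 10 counts in every sample, which leaves fewer genes tested, 483 were called late. With library size alone the median of all genes over the whole course moved from -0.02 to -0.13, and 1190 genes were called higher and 1214 lower, against 1356 and 1013.

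Of the 7 isozyme ratios, 63 of 63 values with 1 sample left out kept their call. With a replicate block, samples being permuted within their replicate number, the test among the 3 days no longer passed for Agpat3 to Agpat1 (exact adjusted p = 0.117) and Lpin2 to Lpin3 (exact adjusted p = 0.13). Their log2 ratios at day 8 minus day 0, which that test does not address, were 0.77 and -2.39. With 0.1 added to each FPKM, Lpin1 to Lpin3 passed the test among the 3 days (exact adjusted p = 0.01), its log2 ratio at day 8 minus day 0 was 0.35 against -0.03 without it, and the cause was not tested. Samples with the same replicate number did not deviate together (r of deviations from day means -0.03 to 0.07 over 9 pairs), so the numbers were not taken as pairs. With the replicate block in edgeR 1287 genes were called higher and 1053 lower early, 556 and 367 late, and 1360 and 1010 over the whole course, and no member's call by fold and adjusted p changed.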
